A study of Mus musculus with 32 samples.

Results

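The mitochondrial ribosomal proteins are the protein part of the ribosome inside mitochondria. Their genes were taken as every gene on the array with a symbol that begins with Mrpl or Mrps and a digit, 1 probe set per gene. That gave 76 genes, 48 of the large subunit (Mrpl) and 28 of the small subunit (Mrps), among the 19505 genes with a symbol. Expression was measured in 32 mouse hearts on Affymetrix Clariom S arrays, 1 animal per array, as log2 levels. The study asked how mutations of the mitochondrial protein CHCHD10 (C10) changed expression in the heart with and without OMA1, an inner-membrane protease that signals mitochondrial stress. At 14 weeks the groups were C10-G58R OMA1-/-, C10-G58R OMA1+/-, WT OMA1-/- and WT OMA1+/- mice. At 20 weeks they were C10-S59L OMA1-/-, C10-S59L OMA1+/-, WT OMA1-/- and WT OMA1+/- mice. Each of the 8 groups held 4 hearts, and each of the mice lacked 1 or both copies of Oma1, so no group had OMA1 in full. The C10-G58R allele was made on a C57Bl6J background. Both sexes were present in every group, with 2 males and 2 females in most. Most C10-G58R OMA1-/- pups die soon after birth, so the 4 adult hearts of that genotype are from survivors. Each mutation was measured at 1 age, so the mutation and the age cannot be told apart in a comparison between them.

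Mitochondrial ribosomes translate the few proteins encoded by mitochondrial DNA, all of them core subunits of the respiratory chain and ATP synthase. Their RNA is made inside the organelle, but every ribosomal protein is encoded in the nucleus, made in the cytosol and imported. Many of these proteins have a bacterial counterpart and many others are peculiar to mitochondria, and inherited defects of several of them cause cardiomyopathy in humans.

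The promoters are shown because the 76 genes lie across the genome and their regulation has been linked to factors that serve nuclear genes for mitochondria. RefSeq windows (GRCm38.p6, 250 bases before to 50 bases after the start, 300 bases in all) were matched for 67 of the 76 genes. The binding letters of YY1 (AAGATGGC, either strand) were present in 12 of these 67 windows, 17.9%, against 3.32% of all 15691 windows. Those of the ETS factor GABPA (CCGGAAGT, either strand) were in 11 windows, 16.4%, against 5.47%. The core letters of NRF1 (GCATGCGC, either strand) were in 8 windows, 11.9%, against 3.73%. The cyclic AMP element (TGACGTCA) was in 2 windows, 2.99%, against 2.42%. The element of C/EBP and ATF factors (TGATGNAA, either strand) was in 0 of 67 windows, against 3.5% of all windows. The GC box (GGGCGG) was in 49.3% of the 67 windows and in 48.2% of all, and the median GC content was 58% against 57%. A match is only a run of letters in this window. Shown are promoters of 3 genes with an ETS match (Mrpl52, Mrpl43 and Mrpl33, the last with an NRF1 match beside it), 1 with an NRF1 match on both strands (Mrpl39) and 1 with a YY1 match (Mrps18a), with the matched letters in capitals.
Mrpl52 (chr14:54426659-54426958, plus strand): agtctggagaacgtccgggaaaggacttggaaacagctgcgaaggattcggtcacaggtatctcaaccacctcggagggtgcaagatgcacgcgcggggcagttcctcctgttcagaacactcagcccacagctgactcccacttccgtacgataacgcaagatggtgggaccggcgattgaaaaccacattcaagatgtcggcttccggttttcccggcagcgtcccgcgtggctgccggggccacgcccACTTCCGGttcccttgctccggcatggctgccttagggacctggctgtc
Mrpl33 (chr5:31613701-31614000, plus strand): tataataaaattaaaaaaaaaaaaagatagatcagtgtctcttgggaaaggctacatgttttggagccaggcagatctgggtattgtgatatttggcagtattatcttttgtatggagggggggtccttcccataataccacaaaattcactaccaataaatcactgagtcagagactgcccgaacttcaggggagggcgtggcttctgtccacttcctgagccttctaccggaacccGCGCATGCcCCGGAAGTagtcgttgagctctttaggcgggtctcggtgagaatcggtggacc
Mrpl43 (chr19:45006393-45006692, minus strand): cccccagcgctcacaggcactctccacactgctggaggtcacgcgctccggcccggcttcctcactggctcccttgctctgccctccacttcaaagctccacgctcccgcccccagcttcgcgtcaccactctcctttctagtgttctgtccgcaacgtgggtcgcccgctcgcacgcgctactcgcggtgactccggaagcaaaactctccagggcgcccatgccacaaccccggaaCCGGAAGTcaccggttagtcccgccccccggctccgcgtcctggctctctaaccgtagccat
Mrpl39 (chr16:84735195-84735494, minus strand): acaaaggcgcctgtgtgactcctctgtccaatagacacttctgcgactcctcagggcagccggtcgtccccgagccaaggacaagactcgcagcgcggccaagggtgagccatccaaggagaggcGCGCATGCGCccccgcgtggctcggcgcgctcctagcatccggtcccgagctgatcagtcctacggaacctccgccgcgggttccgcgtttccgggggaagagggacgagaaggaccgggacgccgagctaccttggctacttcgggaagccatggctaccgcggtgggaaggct
Mrps18a (chr17:46110754-46111053, plus strand): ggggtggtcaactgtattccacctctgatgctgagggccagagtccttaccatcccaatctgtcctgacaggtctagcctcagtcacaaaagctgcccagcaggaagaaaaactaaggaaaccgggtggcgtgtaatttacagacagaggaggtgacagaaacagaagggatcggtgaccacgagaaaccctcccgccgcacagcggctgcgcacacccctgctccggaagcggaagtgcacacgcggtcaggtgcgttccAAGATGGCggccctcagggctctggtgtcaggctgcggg
The first 4 of these genes rose in at least 1 comparison described next, and Mrps18a did not pass the test in any. Among the 34 windows of genes higher in C10-G58R OMA1-/- hearts, 17.6% held the ETS letters and 14.7% those of YY1. Among the other 33 windows these shares were 15.2% and 21.2%. The widest split of the 8 motifs searched was that of the GC box, in 38.2% of the 34 and 60.6% of the 33 windows. The E-box (CACGTG) and the ZNF143 letters (ACTACAA) were each in 7.46% of the 67 windows, against 8.18% and 3.87% of all.

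The 76 genes were not equally bright. Mean log2 levels over the 32 hearts ran from 5.63 for Mrpl54 to 17.00 for Mrpl42, with a median of 10.93 for the large and 10.31 for the small subunit. These are levels of probe sets and set no gene against another. An empirical background was taken as the 95th percentile of the mean levels of 1412 olfactory and vomeronasal receptor genes, a log2 level of 6.59. The means of 2 members, Mrpl54 and Mrpl36, lay below it. Because the other 74 members lay above it, the shares of called genes are also given among the 9913 genes with a mean above background.

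The hearts differed in cell-type markers and in the spread of their values. The mean log2 level of 7 cardiomyocyte markers was 17.47 to 17.98 in C10-S59L against 18.15 to 18.48 in WT hearts of 20 weeks, without overlap. At 14 weeks it was 17.63 to 18.15 in C10-G58R OMA1-/- against 18.26 to 18.47 in WT OMA1-/- hearts, also without overlap, and 18.16 to 18.39 in C10-G58R OMA1+/- against 18.02 to 18.37 in WT OMA1+/- hearts. Of the 7 markers, 3 were called lower in C10-G58R OMA1-/-, 4 in C10-S59L OMA1-/- and 2 in C10-S59L OMA1+/- hearts. White fat-cell markers (5 genes) averaged above a log2 level of 8, a limit set after these levels were seen, in 7 hearts. These were C10-G58R OMA1-/- replicate 1, WT OMA1+/- replicates 1, 2 and 3 at 14 weeks, C10-S59L OMA1-/- replicates 1 and 2, and C10-S59L OMA1+/- replicate 1. Ucp1, which marks brown fat, reached 16.01 in the second C10-S59L OMA1-/- heart and 13.20 in the third WT OMA1+/- heart of 14 weeks. Macrophage markers (7 genes) averaged 10.24 to 12.36 in C10-S59L and 8.70 to 9.32 in WT hearts of 20 weeks, and endothelial markers (5 genes) 10.96 to 12.10 and 12.69 to 13.24. At 14 weeks, macrophage markers averaged 9.67 to 11 in C10-G58R and 8.32 to 10.72 in WT hearts, and endothelial markers 11.17 to 12.47 and 12.31 to 13.22. The SD of log2 levels over all genes on an array was 3.09 to 3.22 in C10-G58R against 2.89 to 3.11 in WT hearts, and 3.04 to 3.22 in C10-S59L against 2.78 to 2.94 in WT hearts. The Oma1 probe set was at 9.83 to 10.14 in C10-G58R OMA1-/- against 10.28 to 10.64 in C10-G58R OMA1+/- hearts, and where it lies relative to the deletion was not given. In whole hearts, fewer cells of a type and less RNA per cell cannot be told apart. The part of cell mixture in the results that follow was not tested.

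Averaged over the 76 genes, the members stood higher in C10-G58R hearts than in WT hearts of the same age and OMA1 genotype. The mean deviation of the 76 genes from their own means over all hearts was 0.54 ± 0.05 (SD, n = 4) in C10-G58R OMA1-/- hearts and -0.19 ± 0.20 in WT OMA1-/- hearts of 14 weeks. It was 0.51 ± 0.20 in C10-G58R OMA1+/- hearts and 0.02 ± 0.16 in WT OMA1+/- hearts, and in both pairs every mutant heart lay above every WT heart. At 20 weeks it was 0.08 ± 0.07 in C10-S59L OMA1+/- hearts, all above the WT OMA1+/- hearts at -0.36 ± 0.24. After quantile normalization these C10-S59L hearts lay at -0.08 to -0.02, within the range of the WT hearts (-0.36 to 0.08), whereas both C10-G58R groups stayed above their WT groups. The 4 C10-S59L OMA1-/- hearts stood far apart from each other, at 0.09, -0.60, -0.72 and 0.44, and overlapped the WT OMA1-/- hearts, which ran from -0.74 to -0.03.

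**Figure D1:**
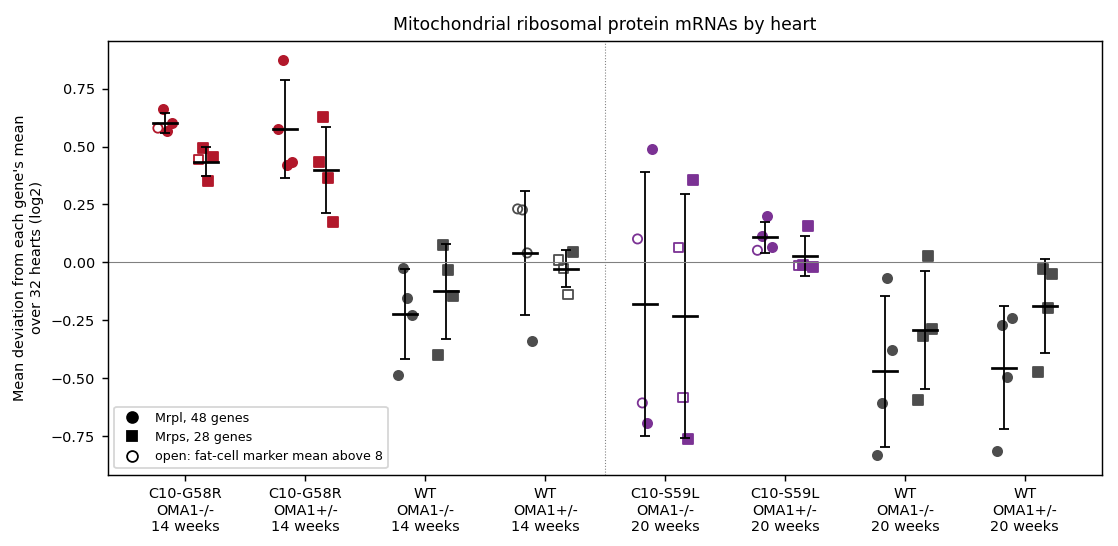
Mean deviation of the 48 Mrpl genes (circles) and the 28 Mrps genes (squares) from each gene's mean over 32 hearts, in log2 units, 1 point per heart; bars are group means and SD, n = 4. All C10-G58R hearts lie above the WT hearts of their OMA1 genotype, and the C10-S59L OMA1-/- hearts spread from -0.72 to 0.44 over all 76 genes.

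Without OMA1, the C10-G58R mutation went with higher levels of about every other mitochondrial ribosomal protein gene. In C10-G58R OMA1-/- against WT OMA1-/- hearts, 39 of 76 genes (51.3%) rose and 3 (3.95%) fell at an adjusted p below 0.05 (limma, Benjamini-Hochberg over 19505 genes). Over all genes 18.3% rose and 15.3% fell, and among genes above background 31.4% rose and 15.6% fell. The median change was 0.69 on the log2 scale over the members, -0.10 over all genes and 0.21 over genes above background. The groups did not overlap for 44 members that were higher and 5 that were lower, against 19.8% and 16.5% of all genes. After quantile normalization, which gives every array the same spread, 29 members rose and 9 fell, against 14.6% and 14.8% of all genes. The median over the members was then 0.39. All of these 29, and 3 of the 9, were called the same way on the deposited values. Without the hearts of high fat-cell markers in this cohort, the median over the members moved by less than 0.27, the pooled SD of the member mean within groups.

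Mrpl19, a large-subunit protein with a bacterial counterpart, had the smallest p of the 39. Its log2 levels were 13.66, 13.66, 13.43 and 13.26 in C10-G58R OMA1-/- hearts, against 11.25, 11.34, 11.56 and 11.23 in WT OMA1-/- hearts. Every mutant heart lay above every WT heart by a wide gap, and the change was 2.16 ± 0.18 (SE, adjusted p = 1.84e-07). Mrpl38, a mitochondria-specific protein of the central protuberance, had levels of 11.10, 11.61, 11.66 and 11.10 in C10-G58R OMA1-/- and 8.72, 9.59, 9.37 and 9.29 in WT OMA1-/- hearts. Its change of 2.12 ± 0.23 (SE, adjusted p = 3.07e-06) again left no overlap. Mrps18b, 1 of 3 paralogous Mrps18 proteins, stood at 11.71, 11.80, 11.87 and 11.66 in C10-G58R OMA1-/- hearts and at 9.37, 9.96, 9.57 and 9.52 in WT OMA1-/- hearts. The mutant hearts lay close together, all above the WT hearts, and the change was 2.15 ± 0.24 (SE, adjusted p = 3.25e-06).

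Mrps23 and Mrpl52 are mitochondria-specific proteins of the small and the large subunit. Levels of Mrps23 were 13.58, 14.09, 13.81 and 13.80 in C10-G58R OMA1-/- hearts, against 12.26, 12.27, 12.44 and 12.11 in WT OMA1-/- hearts, a change of 1.55 ± 0.18 (SE, adjusted p = 5.91e-06). Mrpl52, whose promoter holds the ETS letters just past the start, had 10.72, 10.75, 10.25 and 10.35 in C10-G58R OMA1-/- and 7.41, 7.69, 8.43 and 8.28 in WT OMA1-/- hearts. Again no mutant heart reached down to a WT heart, and the change was 2.56 ± 0.30 (SE, adjusted p = 6.41e-06). Mrpl43 had levels of 7.57, 7.79, 7.45 and 7.60 in C10-G58R OMA1-/- hearts and was not above background in any of the 4 WT OMA1-/- hearts (5.86, 6.42, 6.27 and 6.10). Its change was therefore at least 1.01 on the log2 scale (adjusted p = 9.94e-06). Mrpl34, a small protein of the large subunit with a bacterial counterpart, rose by 2.87 ± 0.35 (SE), the most of the 76 genes, and Mrps10 by 2.08 ± 0.30. These 8 had the smallest p among the 39. Mrpl54 was called higher as well, but it was not above background in the WT hearts and in 2 of the 4 mutant hearts, which leaves a change of at least 0.19.

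The 3 genes that fell were all of the large subunit and have bacterial counterparts. Mrpl28 had 8.92, 8.33, 9.11 and 9.05 in C10-G58R OMA1-/- hearts, against 10.08, 10.39, 10.02 and 10.05 in WT OMA1-/- hearts, without overlap. Its change was -1.28 ± 0.28 (SE, adjusted p = 0.00166). Mrpl3, a core protein of the large subunit, fell by 0.93 (SE 0.27, adjusted p = 0.0113). Mrpl11, of the stalk base, fell by 0.58 (SE 0.22, adjusted p = 0.0495) and lost its call without any of 12 of the 16 hearts, taken singly.

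**Figure D2:**
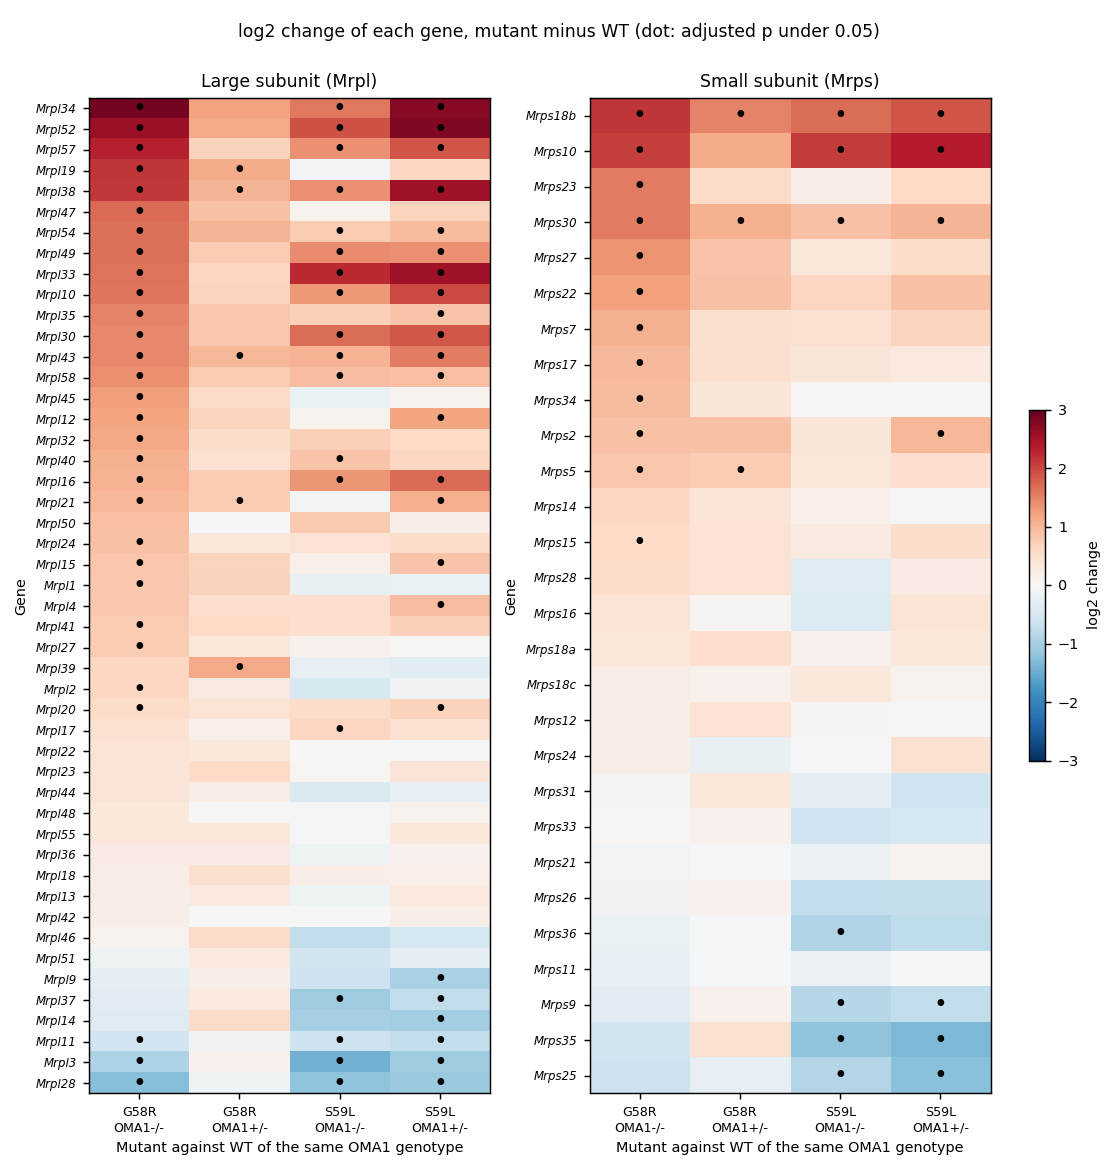
log2 change of each of the 76 genes (rows, Mrpl left and Mrps right, ordered by the first column), mutant minus WT of the same OMA1 genotype; a dot marks an adjusted p below 0.05 in limma. Dots on red are most frequent for C10-G58R on OMA1-/- (39), and the genes at the foot of each panel are lower in C10-S59L hearts.

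With 1 copy of OMA1, 8 of the genes passed the test in C10-G58R hearts, and nearly all of the rest had a change above 0. In C10-G58R OMA1+/- against WT OMA1+/- hearts, 8 of 76 genes (10.5%) rose and 0 fell, against 1.51% and 0.472% of all genes and 2.77% and 0.504% of genes above background. The change was above 0 for 68 of the 76, against 46.8% of all genes and 63.4% of genes above background. Its median was 0.48, against -0.03 over all genes and 0.14 over genes above background. After quantile normalization 59 were above 0 and the median was 0.30. The groups did not overlap for 19 members, all higher (4.56% of all genes were higher without overlap and 3.31% lower), and of the 8 called genes 7 were also called higher on OMA1-/-.
The count depended on which hearts set the spread. Fitted on these 8 hearts alone, 0 members passed (25 had an unadjusted p below 0.05, with no count over all genes beside it). After quantile normalization 5 passed, all higher, against 1.06% of all genes higher and 0.431% lower. Leaving out single hearts gave 3 to 11, with 3 calls without C10-G58R OMA1+/- replicate 1 or 2, 5 without its replicate 3 and 4 without WT OMA1+/- replicate 4.

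Mrps18b had the smallest p of the 8, with 11.01, 10.93, 11.20 and 10.21 in C10-G58R OMA1+/- hearts against 8.79, 9.75, 9.62 and 9.24 in WT OMA1+/- hearts. No mutant heart overlapped a WT heart, and the change was 1.49 ± 0.24 (SE, adjusted p = 0.00209). Mrpl19 stood at 12.33, 12.54, 12.14 and 12.29 in C10-G58R OMA1+/- and at 11.11, 11.26, 10.88 and 11.61 in WT OMA1+/- hearts, a change of 1.11 ± 0.18 (SE, adjusted p = 0.003). Mrpl43 had 8.01, 7.87, 7.51 and 7.58 in C10-G58R OMA1+/- hearts and 6.75, 6.88, 6.72 and 6.62 in WT OMA1+/- hearts, which lie close to the background of 6.59. It changed by 1.0 ± 0.18 (SE, adjusted p = 0.00532). Mrps30, which structures place in the large subunit in spite of its symbol, had 10.22, 10.92, 10.07 and 9.90 in C10-G58R OMA1+/- hearts and 9.45, 9.22, 9.40 and 8.74 in WT OMA1+/- hearts. The change was 1.08 ± 0.24 (SE, adjusted p = 0.024), without overlap. Mrpl38 had 10.85, 10.97, 11.14 and 10.89 in C10-G58R OMA1+/- and 9.85, 10.29, 10.23 and 9.39 in WT OMA1+/- hearts and changed by 1.02 ± 0.23 (SE, adjusted p = 0.0288). Mrpl39, a mitochondria-specific protein whose promoter holds the NRF1 letters, had 12.21, 12.09, 11.38 and 11.12 in C10-G58R OMA1+/- hearts and 10.98, 10.61, 10.36 and 10.33 in WT OMA1+/- hearts. Its change was 1.13 ± 0.26 (SE, adjusted p = 0.0316), and it was the 1 of the 8 that was not called on OMA1-/- (0.62 ± 0.26, adjusted p = 0.0756). Mrps5 and Mrpl21, both with bacterial counterparts, rose by 0.76 ± 0.18 and 0.76 ± 0.19. Neither was called after quantile normalization (adjusted p = 0.126 and 0.108), nor was Mrpl39 (adjusted p = 0.0546), and Mrpl21 lost its call in 14 of the 16 fits that left out 1 heart.

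The WT OMA1+/- hearts of 14 weeks were split by fat-cell markers, and several members moved with that split. Mrpl33, a small large-subunit protein, stood at 15.85, 15.43, 15.29 and 13.12 in these 4 WT hearts, of which the first 3 had fat-cell marker means of 10.26, 10.95 and 10.68 and the fourth 6.43. In C10-G58R OMA1+/- hearts it stood at 15.57, 16.07, 15.21 and 15.38, so that 3 WT hearts lay within the mutant range and the fourth over 2 units below it. Mrpl28 showed the opposite order, at 8.91, 8.85, 9.48 and 10.28 in the same WT hearts and 9.18, 8.95, 9.68 and 9.20 in C10-G58R OMA1+/- hearts. A fit without the hearts of high fat-cell markers took out these 3 WT hearts and C10-G58R OMA1-/- replicate 1. It leaves 1 WT OMA1+/- heart, whose spread is taken from the other groups. The median change of the members then moved by less than 0.27, the pooled SD of the member mean within groups. With the fat-cell marker mean as a covariate, 21 members were called higher and 0 lower. Calls over all genes in the covariate fit were not set beside this count, so it shows no gain particular to the members. Fat-cell marker level and the levels of these genes in WT OMA1+/- hearts cannot be told apart with 4 hearts.

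**Figure D3:**
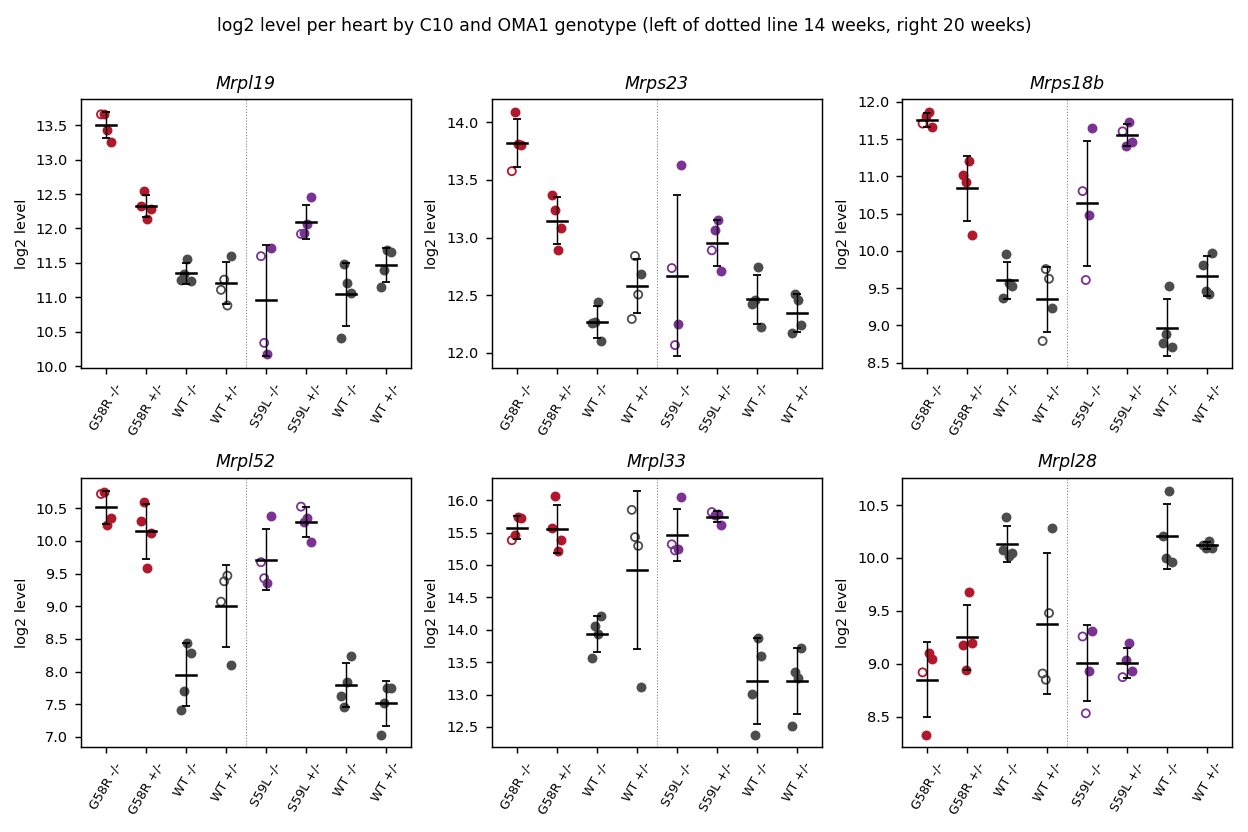
log2 level of 6 genes in each heart (points; open where the fat-cell marker mean is above 8) with group means and SD (n = 4), by C10 and OMA1 genotype, 14 weeks left and 20 weeks right of the dotted line. Mrpl19 and Mrps23 are highest in C10-G58R OMA1-/- hearts, and for Mrpl33 and Mrpl28 the 3 open WT +/- points lie apart from the filled one.

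Few of the 76 genes passed the test between OMA1 genotypes, and with all hearts included those that did were in C10-G58R hearts. In C10-G58R OMA1-/- against C10-G58R OMA1+/- hearts, 3 members rose (3.95%) and 0 fell, against 3.25% and 1.24% of all genes. The share of members that rose was thus near that of all genes. Mrpl19 rose by 1.18 ± 0.18 (SE, adjusted p = 7.31e-04), with no overlap between the levels listed above. Mrps18b rose by 0.92 ± 0.24 (SE, adjusted p = 0.0308) and Mrps23 by 0.67 ± 0.18 (SE, adjusted p = 0.0385). Levels of Mrps23 in C10-G58R OMA1+/- hearts were 13.37, 13.24, 12.89 and 13.09. The count was 1 without any of C10-G58R OMA1+/- replicate 4 and C10-G58R OMA1-/- replicates 2, 3 and 4, taken singly.
In WT OMA1-/- against WT OMA1+/- hearts of 14 weeks, limma called 0 members and 0 of all genes (0%), with 16 members at an unadjusted p below 0.05. Without WT OMA1+/- replicate 4, the heart of low fat-cell markers, 3 members were called higher and 13 lower. That fit keeps only hearts of high fat-cell markers in the WT OMA1+/- group. Its calls over all genes were not set beside these counts, so they show nothing particular to the members. In C10-S59L OMA1-/- against C10-S59L OMA1+/- hearts 0 members were called (8 at an unadjusted p below 0.05, and 165 of all genes, 0.846%). Of the 76 changes 67 were below 0, with a median of -0.26, against -0.0001 over all genes. That median of the members was -0.45 without C10-S59L OMA1-/- replicate 4 and -0.08 without its replicate 3. Without C10-S59L OMA1-/- replicate 4, 2 members were called lower. In WT OMA1-/- against WT OMA1+/- hearts of 20 weeks 0 members were called (1 at an unadjusted p below 0.05, and 1 of all genes, 0.00513%).

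Whether the effect of C10-G58R differed with OMA1 was tested as an interaction. It was called for 2 members, Mrpl19 at 1.04 ± 0.26 (SE, adjusted p = 0.0346) and Mrps23 at 0.98 ± 0.25 (SE, adjusted p = 0.0415), both with a larger rise on OMA1-/-. Over all genes 2.24% were called in that direction and 0.887% in the other, so the share of members was near that of all genes. Levels of Mrps23 in WT OMA1+/- hearts were 12.29, 12.84, 12.51 and 12.68, and the change on OMA1+/- was 0.57 ± 0.18, not called (adjusted p = 0.108). Neither interaction was called without the hearts of high fat-cell markers, where they were 1.39 and 1.17, or after quantile normalization, where they were 0.87 and 0.75. Leaving out single hearts gave 0 to 11 calls: fewer than 2 in 13 of 16 fits, and 11 without WT OMA1+/- replicate 4. For S59L and OMA1, 0 members had a called interaction (4 at an unadjusted p below 0.05, and 14 of all genes, 0.0718%).

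The C10-S59L mutation raised some of the genes and lowered others. In C10-S59L OMA1+/- against WT OMA1+/- hearts, 22 of 76 (28.9%) rose and 9 (11.8%) fell, against 18.6% and 17.9% of all genes. Among genes above background 32.6% rose and 15% fell, so the share of members that rose was close to that of genes above background. The median change was 0.35 over the members and 0.27 over genes above background. The groups did not overlap for 30 members that were higher and 8 that were lower (19.5% and 18.4% of all genes). Quantile normalization turned the balance to 13 higher and 16 lower, with a median of -0.00. Over all genes 14.1% were then higher and 15.7% lower, so the balance of all genes turned as well. The 13 higher genes and 9 of the 16 lower ones were called alike on the deposited values. Without the hearts of high fat-cell markers, 22 rose and 7 fell. Calls over all genes in that fit were not set beside these counts, so they show nothing particular to the members.

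Mrpl52 had the smallest p, at 10.53, 10.30, 10.35 and 9.98 in C10-S59L OMA1+/- hearts against 7.03, 7.51, 7.75 and 7.75 in WT OMA1+/- hearts. The groups lay over 2 units apart, and the change was 2.78 ± 0.25 (SE, adjusted p = 4.19e-07). Mrpl33 had 15.82, 15.77, 15.78 and 15.62 in C10-S59L OMA1+/- hearts and 12.51, 13.35, 13.25 and 13.72 in WT OMA1+/- hearts, a change of 2.54 ± 0.30 (SE, adjusted p = 8.12e-06). Mrpl38 had 11.14, 10.85, 11.13 and 10.98 in C10-S59L OMA1+/- and 7.94, 8.98, 8.49 and 8.56 in WT OMA1+/- hearts, a change of 2.54 ± 0.32 (SE, adjusted p = 1.55e-05). All 3 proteins belong to the large subunit, and none of their groups overlapped. Mrps10, a small-subunit protein with a bacterial counterpart, had 10.59, 10.61, 10.93 and 10.52 in C10-S59L OMA1+/- hearts, against 7.85, 8.38, 8.30 and 8.64 in WT OMA1+/- hearts. It changed by 2.36 ± 0.30 (SE, adjusted p = 1.60e-05). Mrpl34 had 11.44, 11.50, 11.65 and 11.54 in C10-S59L OMA1+/- and 8.80, 9.06, 8.38 and 8.97 in WT OMA1+/- hearts and changed by 2.73 ± 0.35 (SE, adjusted p = 1.73e-05). Mrpl10, the anchor of the stalk that recruits translation factors, had 8.95, 8.50, 9.20 and 8.57 in C10-S59L OMA1+/- hearts and 6.08, 7.42, 7.01 and 6.83 in WT OMA1+/- hearts. Its change was 1.97 ± 0.27 (SE, adjusted p = 3.09e-05), again without overlap. Mrpl57 rose by 1.89 ± 0.30 and Mrps18b by 1.88 ± 0.32. Mrpl43 was not above background in any of the 4 WT OMA1+/- hearts, and its rise was at least 0.67. Mrpl54 was called here and on OMA1-/-, but lay below background in nearly all hearts of both groups and has no measured fold.

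Of the 9 genes that fell, Mrpl28 had the smallest p, at 8.88, 9.03, 9.20 and 8.94 in C10-S59L OMA1+/- and 10.13, 10.09, 10.16 and 10.09 in WT OMA1+/- hearts. The change was -1.11 ± 0.20 (SE, adjusted p = 4.20e-04). Mrps25 and Mrps35, mitochondria-specific proteins of the small subunit, fell by 1.25 (SE 0.27) and 1.35 (SE 0.31). Mrpl9, Mrpl11, Mrpl3 and Mrpl14 have bacterial counterparts and fell by 0.98, 0.74, 1.08 and 1.05. Mrpl37, which is mitochondria-specific, fell by 0.73 and Mrps9 by 0.73. Mrpl37 lost its call in 11 of the 16 fits that left out 1 heart, and Mrpl14 in 7.

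On OMA1-/-, 17 members rose (22.4%) and 8 fell (10.5%) in C10-S59L against WT hearts, against 15.8% and 14% of all genes and 27.9% and 13.4% of genes above background. The median change was 0.11 over the members and 0.21 over genes above background. The smallest p values among the genes that rose were of Mrpl52 (1.92 ± 0.25), Mrpl33 (2.25 ± 0.30), Mrps10 (2.09 ± 0.30) and Mrps18b (1.67 ± 0.32), followed by Mrpl49, Mrpl10, Mrpl30 and Mrpl57 (1.31 to 1.68). Among those that fell they were of Mrpl28 (-1.20 ± 0.20), Mrpl3 (-1.44 ± 0.36) and Mrps35 (-1.20 ± 0.31), followed by Mrpl37, Mrps25, Mrps9 and Mrpl11 (-1.06 to -0.62). Mrps36, now known as a subunit of the α-ketoglutarate dehydrogenase complex and not as a ribosomal protein, fell by 0.89 (SE 0.32) and lost its call in 10 of the 16 fits that left out 1 heart. After quantile normalization 13 members rose and 17 fell, with a median of -0.23, against 12.1% and 13.7% of all genes. The 4 mutant hearts differed widely in these genes, with levels of Mrpl19 of 11.60, 10.34, 10.18 and 11.71 in C10-S59L OMA1-/- hearts against 10.40, 11.48, 11.21 and 11.07 in WT OMA1-/- hearts. Mrps23 was at 12.74, 12.07, 12.25 and 13.63 in the same C10-S59L OMA1-/- hearts and at 12.43, 12.46, 12.75 and 12.23 in WT OMA1-/- hearts. For both genes replicate 4 was the highest mutant heart and replicates 2 and 3 were the lowest.

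The changes of single genes were compared between the mutations. C10-G58R against WT on OMA1-/- and C10-S59L against WT on OMA1+/- share no heart, and across the 76 genes their changes had a Pearson r of 0.88 (Spearman 0.87). Across all 19505 genes r was 0.81 (Spearman 0.77). The other 3 pairs across mutations share no heart either. For C10-G58R on OMA1-/- and C10-S59L on OMA1-/- r was 0.85 (0.76 over all genes), for both on OMA1+/- it was 0.69 (0.50), and for C10-G58R on OMA1+/- and C10-S59L on OMA1-/- it was 0.63 (0.35). Genes are not independent replicates, and the 2 sets of hearts share the array type. Of the genes called higher in C10-G58R OMA1-/- and in C10-S59L OMA1+/- hearts, 21 were common to both, which is 53.8% of the 39 and 95.5% of the 22. All 3 genes called lower in C10-G58R hearts (Mrpl3, Mrpl11 and Mrpl28) were among the 9 called lower in C10-S59L hearts, 33.3% of them. No member was called in opposite directions. Shared and opposite calls were not counted over all genes, whose changes also correlated, so these counts do not set the members apart.

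**Figure D4:**
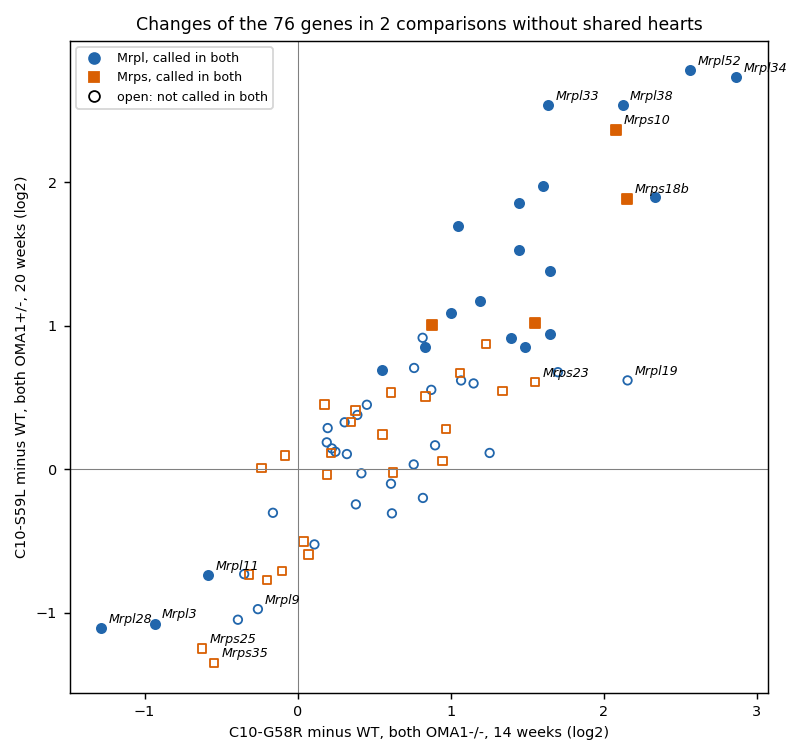
log2 change of each of the 76 genes in C10-G58R minus WT hearts on OMA1-/- (x) against that in C10-S59L minus WT hearts on OMA1+/- (y), 2 comparisons with no heart in common; filled symbols are called in both. Points follow a rising diagonal, with Mrpl52 and Mrpl34 at the upper right and Mrpl28 at the lower left; Mrpl19 lies at 2.16 on the x axis and 0.62 on the y axis.

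Differences between the mutation effects were tested over all 32 hearts. On OMA1-/-, the C10-G58R effect exceeded the C10-S59L effect for 2 members, Mrpl19 by 2.24 ± 0.37 (SE, adjusted p = 0.00153) and Mrps23 by 1.35 ± 0.32 (SE, adjusted p = 0.0283), against 0.728% of all genes in that direction and 0.205% in the other. Mrps23 lost this call without the hearts of high fat-cell markers, where its difference was 1.16, and without any of 8 single hearts. Without C10-S59L OMA1-/- replicate 4, 7 members were called. On OMA1+/-, the C10-G58R effect was higher for 5 members and lower for 4, against 3.03% and 5.3% of all genes. It was higher for Mrps35 (1.80 ± 0.38), Mrpl14 (1.63 ± 0.46), Mrpl39 (1.44 ± 0.39), Mrpl9 (1.15 ± 0.30) and Mrpl46 (1.11 ± 0.35). It was lower for Mrpl33 (-1.90 ± 0.53), Mrpl52 (-1.63 ± 0.40), Mrpl38 (-1.51 ± 0.41) and Mrpl10 (-1.31 ± 0.39). Without the hearts of high fat-cell markers 0 of these were called, and the difference for Mrpl33 was -0.08. Leaving out WT OMA1+/- replicate 3 of 14 weeks gave 5 calls, and leaving out its replicate 4 gave 16.

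The large subunit had a higher median change than the small subunit in all 4 comparisons of mutant with WT hearts, but in C10-S59L OMA1-/- hearts by only 0.02. On OMA1-/-, C10-G58R raised 27 of 48 Mrpl genes (56.2%) and 12 of 28 Mrps genes (42.9%), with medians of 0.82 and 0.47, a difference of 0.35. In C10-S59L OMA1+/- hearts 18 Mrpl genes (37.5%) and 4 Mrps genes (14.3%) rose, with medians of 0.50 and 0.26, a difference of 0.24. In C10-G58R OMA1+/- hearts the medians were 0.57 and 0.43, with 5 and 3 genes called. They were, in C10-S59L OMA1-/- hearts, 0.12 and 0.11, with 14 and 3 genes called higher. After quantile normalization the medians were 0.47 and 0.13 for C10-G58R on OMA1-/- and 0.15 and -0.14 for C10-S59L on OMA1+/-, so that the small subunit's median turned sign there. For C10-S59L on OMA1-/- both turned sign, to -0.22 and -0.24. The genes of a subunit are not replicates, so no test was made over them. Counting Mrps30 and Mrps18a with the large subunit, where structures place them, and leaving out Mrps36 gave differences of 0.15, 0.26, 0.26 and 0.04 (C10-G58R on OMA1+/- and OMA1-/-, C10-S59L on OMA1+/- and OMA1-/-).

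By heart, the mean deviation of the Mrpl genes minus that of the Mrps genes was -0.03 to 0.26 in the 16 mutant hearts. It was -0.38 to -0.08 in the 13 WT hearts of low fat-cell markers and 0.18 to 0.25 in the 3 WT OMA1+/- hearts of high fat-cell markers. The lowest mutant value, -0.03, was that of the second C10-S59L OMA1-/- heart, which had the highest fat-cell marker mean of all (12.90). The mutant hearts and the 13 WT hearts thus did not overlap, and the other 3 WT hearts lay within the mutant range. After quantile normalization the same 3 ranges were -0.01 to 0.27, -0.40 to -0.08 and 0.20 to 0.24. For C10-G58R on OMA1+/-, the difference of medians between the subunits was 0.15 with all hearts and 0.63 without those of high fat-cell markers.

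**Figure D5:**
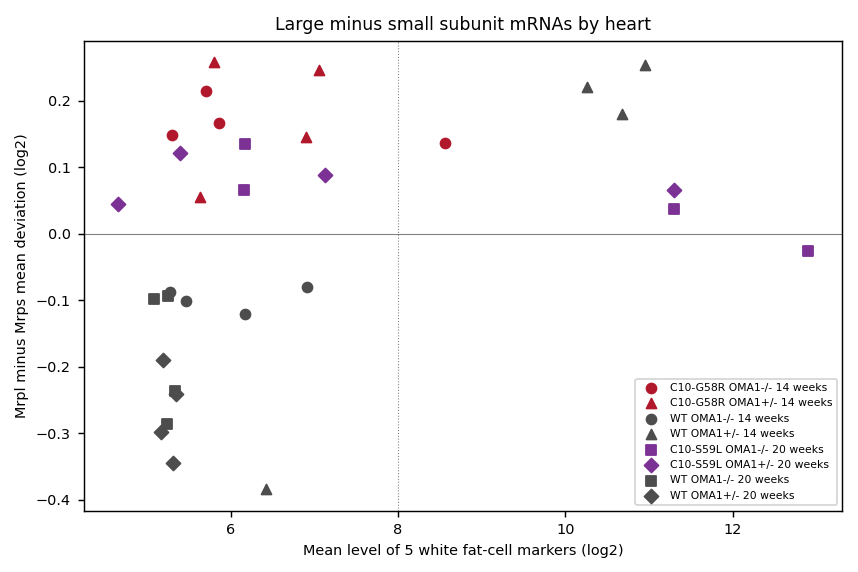
Mean deviation of the 48 Mrpl genes minus that of the 28 Mrps genes (y, log2) against the mean level of 5 white fat-cell markers (x, log2), 1 point per heart. Left of the dotted line at 8, mutant hearts lie above 0 and WT hearts below it; the 3 WT hearts on the right lie at 0.18 to 0.25.

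Within the subunits, genes with and without a bacterial counterpart rose in similar shares in C10-G58R OMA1-/- hearts. On OMA1-/-, C10-G58R raised 17 of 30 Mrpl genes with a bacterial counterpart (median 0.79) and 10 of 18 mitochondria-specific ones (0.98). Among the Mrps genes it raised 6 of 15 (0.56) and 5 of 10 (0.51). The same 4 classes, in C10-S59L OMA1+/- hearts, had 11, 7, 2 and 1 genes called higher, with medians of 0.50, 0.40, 0.28 and -0.22.

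The mRNA levels of genes for the stalk, which binds translation factors, did not change alike. Mrpl10 and Mrpl12 rose by 1.60 ± 0.27 and 1.19 ± 0.26 in C10-G58R OMA1-/- hearts and by 1.97 ± 0.27 and 1.17 ± 0.38 in C10-S59L OMA1+/- hearts, whereas Mrpl11 at their base fell in both. After quantile normalization the rise of Mrpl12 in C10-S59L hearts was 0.76 and was not called. Of 6 genes around the exit tunnel, through which the new chain leaves, 3 rose in C10-G58R OMA1-/- hearts and 0 in C10-S59L OMA1+/- hearts. In the C10-G58R OMA1-/- hearts 0 of the 6 fell, and their median change was 0.66, against 0.69 over all members. The share that rose there, 50%, was near the 51.3% of all members. With only 6 genes, neither count sets the exit tunnel apart.

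Of the 3 Mrps18 paralogs, which occupy different places in the ribosome, Mrps18b alone was called. In C10-G58R OMA1-/- hearts Mrps18a and Mrps18c had changes of 0.35 ± 0.27 and 0.22 ± 0.19, and in C10-S59L OMA1+/- hearts of 0.33 ± 0.31 and 0.11 ± 0.24. All 4 values are below 0 after quantile normalization.

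The genes Mrps22, Mrpl3, Mrpl44 and Mrps14, each linked to cardiomyopathy in humans, were followed in both mutants. Mrps22 rose in C10-G58R OMA1-/- hearts by 1.23 ± 0.23 (SE, adjusted p = 5.42e-04) and had a change of 0.87 ± 0.35 in C10-S59L OMA1+/- hearts, which was not called (adjusted p = 0.06). Mrpl3 fell in both, as given above. Mrpl44 had changes of 0.38 ± 0.19 and -0.25 ± 0.26 and Mrps14 of 0.62 ± 0.32 and -0.02 ± 0.32 in these comparisons, and neither was called. Mrpl58, a release factor-like protein that frees stalled ribosomes, rose by 1.39 ± 0.24 and 0.91 ± 0.30. After quantile normalization its change in C10-S59L OMA1+/- hearts was 0.51 and was not called (adjusted p = 0.171).

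Genes of proteins that assemble or serve the mitochondrial ribosome were followed as lists. Among genes above background, 31.4% rose in C10-G58R OMA1-/-, 32.6% in C10-S59L OMA1+/- and 27.9% in C10-S59L OMA1-/- hearts. In C10-G58R OMA1-/- hearts, 11 of 22 genes of ribosome assembly and rRNA modification (50%) rose and 0 fell, with a median of 0.74. Mpv17l2, which helps assemble the ribosome, rose by 2.06 ± 0.25 (SE), the assembly GTPase Noa1 by 1.94 ± 0.29 and the rRNA methyltransferase Mrm3 by 0.98 ± 0.17. In C10-G58R OMA1+/- hearts, Mrm3 (1.30 ± 0.17) and Noa1 (1.22 ± 0.29) were the 2 called. In C10-S59L OMA1+/- hearts, 8 of the 22 rose (36.4%, near that share), among them Mpv17l2 (2.21 ± 0.27), Noa1 (2.08 ± 0.32) and Nsun4 (1.76 ± 0.42), an rRNA methyltransferase. Of the 22, 4 rose (18.2%, below that share) and 1 fell in C10-S59L OMA1-/- hearts.
Mitochondrial tRNA synthetases rose for 7 of 16 genes (43.8%) and fell for 1 in C10-G58R OMA1-/- hearts, led by those of methionine (Mars2, 1.44 ± 0.21), threonine (Tars2, 0.97 ± 0.19) and arginine (Rars2, 1.47 ± 0.30). In C10-S59L OMA1+/- hearts 5 rose (31.2%, near the share of genes above background) and 2, Aars2 (-1.02 ± 0.20) and Sars2 (-0.79 ± 0.19), fell.
Of 13 mitochondrial translation factors, 4 rose in C10-G58R OMA1-/- hearts (30.8%, near the share of genes above background), among them the recycling factor Mrrf (1.16 ± 0.22) and the formyltransferase Mtfmt (1.02 ± 0.22). In C10-S59L OMA1-/- hearts 1 rose and 4 fell, among which the elongation factor Tufm fell by 1.75 (SE 0.28). Of the 4 measured ribosomal proteins without an Mrpl or Mrps symbol, Dap3 and Ptcd3 rose in C10-G58R OMA1-/- hearts, by 0.76 ± 0.20 and 0.62 ± 0.23, and 0 of the 4 were called in C10-S59L hearts.

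For comparison, 23 of 54 cytosolic ribosomal protein genes (42.6%) rose in C10-G58R OMA1-/- hearts and 35 (64.8%) in C10-S59L OMA1+/- hearts, with medians of 0.59 and 0.66. Complex I is the respiratory enzyme with the most subunits made by mitochondrial ribosomes, but the 35 subunits counted here are all encoded in the nucleus. Of these 35, 3 rose and 14 fell in C10-G58R OMA1-/- hearts (median -0.22). The corresponding counts were 5 and 17 in C10-S59L OMA1+/- hearts (median -0.51). Among genes above background, 31.4% rose and 15.6% fell in the first comparison, and 32.6% rose and 15% fell in the second.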

How the data were processed

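RNA from 32 hearts was hybridised to Clariom S Mouse arrays. The authors processed the arrays in Transcriptome Analysis Console with default settings and deposited log2 values for 28846 probe sets (2.20 to 19.70). Of these, 9274 control or unannotated probe sets were left out and 19572 had 1 symbol. Joint normalization of all arrays is not stated by the sources used here. The probe set of highest mean was kept for each of 19505 genes. For arrays, the number of hearts limits the precision.

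Group means were fitted with limma 3.58.1 (R 4.3.3) on the 16 arrays of a cohort, or on all 32 for differences between mutations, on the deposited values, two-sided, with Benjamini-Hochberg adjustment over 19505 genes and a threshold of 0.05. A gene below background in all 4 hearts of a group was given only a bound, the mean of the brighter group minus the background level. Named were, for each comparison, up to 8 called members of smallest p in each direction, a fixed set of stalk, paralog and disease-linked genes, and up to 3 called genes of each related list. Values per heart are given for the members of smallest p. The members and lists were chosen with earlier results of these data known. Genes singled out for their levels in WT OMA1+/- hearts were chosen after their values were seen.

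Each array was taken as a separate animal. Alternatives were a fit on the compared groups only, trend and robust options, quantile normalization, sex as a covariate, the replicate number as a block, only genes above background, leaving out each heart and, added after seeing the data, leaving out or adjusting for fat-cell marker levels. Scripts were tested on simulated data. In a simulation of C10-G58R against WT on OMA1+/- over 19505 genes, 45% of changes of 1 log2 unit and 94% of changes of 2 units were called. For C10-S59L against WT on OMA1+/- these shares were 50% and 97%. For the interaction of C10-G58R and OMA1 they were 14% and 76%, so most interactions of 1 unit were missed. Promoter letters were searched by exact match on both strands, those of NRF1 shortened to a core of 8 letters after a first search with a longer form. Figures were drawn with matplotlib 3.10.9.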

Additional observations from a re-analysis of the deposited data

Results flagged for a closer look

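Of 14 items tested in 8 groups each (112 tests), 2 had 1 heart far from the other 3. Chance alone gives about 1 in 20 tests, which is more flags than were found. Mrpl33 was at 16.05 in C10-S59L OMA1-/- replicate 4 and at 15.23 to 15.32 in the other 3 hearts. The mean deviation of the Mrpl genes minus that of the Mrps genes was -0.38 in WT OMA1+/- replicate 4 of 14 weeks and 0.18 to 0.25 in the other 3, which are the hearts of high fat-cell markers.

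The effect of C10-G58R differed between OMA1-/- and OMA1+/- hearts in a test of the interaction for Mrpl19 (1.04) and Mrps23 (0.98), in log2 units. The share of members with such a call was near that of all genes (2.24%). The effects of C10-G58R and C10-S59L on OMA1-/- differed for Mrpl19 (2.24) and Mrps23 (1.35). On OMA1+/- they differed for Mrps35 (1.80), Mrpl14 (1.63), Mrpl39 (1.44), Mrpl9 (1.15) and Mrpl46 (1.11), higher for C10-G58R, and for Mrpl33 (-1.90), Mrpl52 (-1.63), Mrpl38 (-1.51) and Mrpl10 (-1.31), lower for C10-G58R. Mutation and age cannot be told apart in these differences.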

How the results depend on the processing

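Counts of called members outside 1.5 times the count on the deposited values are given here, and the cause was not tested. Calls over all genes in these fits are not set beside them. For C10-G58R against WT on OMA1+/- (8 called) they were 0 with only the groups compared, 5 after quantile normalization, 26 without the hearts of high fat-cell markers and 21 after adjustment for the fat-cell marker mean as a covariate. For the interaction of C10-G58R and OMA1 (2 called) they were 1 with trend and robust options, 1 after quantile normalization (lower, and neither of these 2), 1 with the replicate block, and 0 without those hearts or with the covariate. For C10-S59L against WT on OMA1-/- (25 called) the count was 16 with only the groups compared. For the difference between mutations on OMA1+/- (9 called) it was 16 after quantile normalization, 0 without the hearts of high fat-cell markers and 1 with the covariate. On OMA1-/- (2 called) it was 1 with only the groups compared, with the replicate block, without those hearts and with the covariate. The large minus small difference for C10-G58R on OMA1+/- was 0.63 without those hearts, against 0.15.

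Changes that turned sign were, after quantile normalization, those of Mrps18a (-0.00102) and Mrps18c (-0.10) in C10-G58R OMA1-/- hearts and of Mrps18a (-0.0749) and Mrps18c (-0.30) in C10-S59L OMA1+/- hearts. Mrps14 in C10-S59L OMA1+/- hearts was -0.02 with all hearts, 0.0834 without the hearts of high fat-cell markers, 0.0570 with the covariate, and -0.168 to 0.0845 when single hearts were left out. None of these 3 genes was called.

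Leaving out single hearts gave 3 to 11 calls for C10-G58R on OMA1+/-, 38 to 46 on OMA1-/-, 1 to 3 for OMA1 in C10-G58R, 0 to 16 for OMA1 in WT hearts of 14 weeks, and 0 to 11 for the interaction. It gave 22 to 36 and 17 to 28 for C10-S59L on OMA1+/- and OMA1-/-, 0 to 2 for OMA1 in C10-S59L, and 5 to 16 and 1 to 7 for the differences between mutations on OMA1+/- and OMA1-/-.

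The replicate numbers gave no clear pairing of the hearts. Of 48 same-numbered pairs, 17 had a correlation of deviations above 0.1 (-0.38 to 0.33, median 0.05), and 16 correlated best with their own number. Whether hearts came from shared litters was not tested. With the replicate block 9, 44, 30 and 23 members were called for C10-G58R on OMA1+/- and OMA1-/- and C10-S59L on OMA1+/- and OMA1-/-. A fit on only the groups compared already holds all 4 groups for the interactions, so no such alternative was run there. Detection is limited for Mrpl54, Mrpl36 and Mrpl43, which lay near or below background.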

Other observations

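Genes of mitochondrial transcription and RNA stability were not described above. In C10-G58R OMA1-/- against WT OMA1-/- hearts 4 of 8 rose (50%, against 31.4% of genes above background) and 0 fell, with a median of 0.52, and among them were the transcription factor Tfb2m, the elongation factor Tefm and the RNA-binding protein Lrpprc, with changes of 1.51, 0.96 and 0.67. In C10-S59L OMA1+/- hearts 1 of the 8 rose and 1 fell.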
